A study of Mus musculus with 12 samples.

Results

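A set of 8 genes of T cell traffic was followed in double negative (DN) T cells of the mouse liver, which have CD3 on their surface and lack both CD4 and CD8. They encode 4 chemokine receptors (Cxcr3, Cxcr4, Cxcr6 and Ccr2), the exit receptor S1pr1, and the integrin α chains Itgal, Itgae and Itga1. The 8 genes were chosen by name as receptors that bring lymphocytes to the liver, hold them there or let them leave. Earlier results of these data were known at that point. All 8 were found among the 55401 genes of the table. RNA was sequenced in bulk from adult C57BL/6 livers, from live cells sorted as CD45+, CD3+ and NK1.1- and then by their T cell receptor. The 4 groups, with 3 libraries each, were γδ cells with arachidonic acid (AA), γδ cells without AA, αβ cells with AA and αβ cells without AA. AA is the fatty acid precursor of prostaglandins and leukotrienes, and the labels give 48 h of stimulation. They do not say whether cells without AA were kept in culture for the same time, so AA and time in culture cannot be told apart. No label says that replicates were separate animals or cultures, and p-values then measure only the spread between these libraries, which may be technical.

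Lymphocytes enter tissue when chemokines on the vessel wall act on G protein coupled receptors and switch integrins into their binding form. In the liver the chemokine CXCL16 is displayed along the sinusoids and holds cells that carry CXCR6. CD69, CD49a (the product of Itga1) and CD103 (the product of Itgae) are usual marks of cells that stay in a tissue, while S1PR1 guides lymphocytes back towards the sphingosine-1-phosphate of blood and lymph. Several of these receptors are shared with other leukocytes: CCR2 with monocytes, and CXCR4 and LFA-1, the integrin of Itgal, with most white blood cells.

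Levels are in CPM, a gene's counts scaled to the counts of its whole library. The libraries held 6036487 to 30548253 counts, and the αβ libraries with AA were the least alike, with r = 0.560 to 0.691 between replicates on log2 CPM against 0.803 to 0.899 in the other groups. Summed over 11 T cell markers, the level was 2349 to 4109 CPM in γδ cells with AA, against 2978 to 3736 CPM in γδ cells without AA. In αβ cells it was 511 to 1214 CPM with AA, against 2361 to 3208 CPM without AA. The highest gene of that list was Trbc2, a constant region of the β chain of the αβ receptor. It had 664 to 1176 CPM in γδ cells with AA and 800.2 to 968 CPM without AA. In αβ cells it had 98.6 to 303 CPM with AA and 594 to 842 CPM without AA. Libraries labelled γδ thus held this RNA too. Both libraries labelled replicate 3 without AA went against their labels in Trdc, the constant region of the δ chain. Trdc had 246, 265 and 11.6 CPM in γδ cells without AA, against 3.70, 5.90 and 201 CPM in αβ cells without AA. Fold changes of the receptors that use these 2 libraries are therefore also given without both of them. With AA, Trdc had 208, 197 and 69.8 CPM in γδ cells, against 55.4, 5.35 and 52.8 CPM in αβ cells. Replicate 3 of the γδ cells with AA thus lay near replicates 1 and 3 of the αβ cells with AA. In αβ cells with AA replicate 3 a repeat gene, Gm10800, took 21.9% of all counts.

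None of the 8 receptor genes passed the test in any comparison. A gene was called at an adjusted p under 0.05 in the quasi-likelihood test of edgeR, adjusted by the method of Benjamini and Hochberg over all 22107 genes tested. AA against no AA called 0 of 8 receptors in γδ cells, where 0.00905% of all genes were called, and 0 of 8 in αβ cells, where 0.0136% were called. The average of both AA effects and their difference called 0 of 8 each, with 0% of all genes called in either. Between the populations, γδ against αβ cells called 0 of 8 with AA, against a background of 0.0226%, and 0 of 8 without AA, against a background of 0%. All 8 genes passed the filter on low counts. At an unadjusted p under 0.05, 0 of 8 stood out with AA in γδ cells, 3 with AA in αβ cells, 1 in the average, 2 in the difference, 4 between γδ and αβ cells with AA and 1 between them without AA. Over all genes those numbers were 1600, 2264, 2365, 2117, 4081 and 729, where 1105 would be expected by chance alone.

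Another tool and another filter made a few calls. DESeq2 called 1 receptor with AA in αβ cells (background 2.79%), 1 in the average (2.96%) and 3 between γδ and αβ cells with AA (10.7%), and 0 with AA in γδ cells (1.50%), in the difference (1.96%) and between γδ and αβ cells without AA (0.437%). Without a filter on low counts, edgeR called 1 receptor with AA in γδ cells (background 0.330%), 2 with AA in αβ cells (0.597%), 2 in the average (0.721%), 1 in the difference (0.491%) 3 between γδ and αβ cells with AA (1.52%) and 0 between them without AA (0.0271%). With limma's voom and quality weights, 1 receptor was called between γδ and αβ cells with AA (background 3.22%). It called 0 with AA in γδ cells (0.0950%), 0 with AA in αβ cells (0.276%) and 0 in the average (0.290%), and 0 in the difference and between the populations without AA (0% each). The genes behind these calls are named with their values below. The run without a filter tested 44233 genes, and its p-values could fall far at a like fold change. Ccr7 with AA in γδ cells, for instance, had a log2 of 2.79 with the filter and 2.78 without it. Its edgeR adjusted p went from 0.105 to 5.09e-27, so calls of that run depend on the filter.

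**Figure D1:**
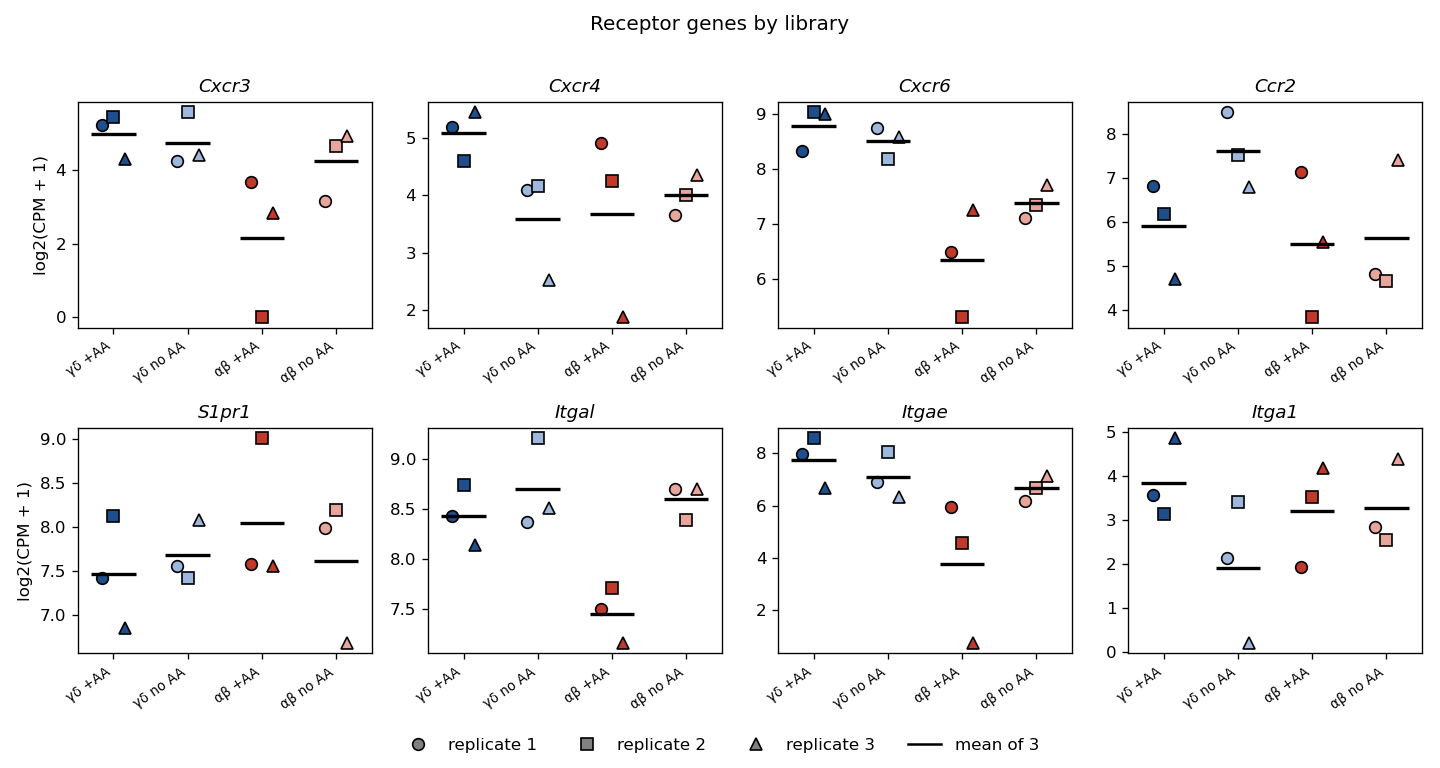
Level of each receptor gene in every library as log2(CPM + 1), with γδ cells in blue and αβ cells in red, darker with AA; symbols mark the replicate and bars the mean of 3. Cxcr6 in both γδ groups lies above all αβ libraries, and Itgal and Itgae are lowest in αβ cells with AA.

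Cxcr6, the receptor for CXCL16, was the receptor gene whose populations did not overlap in either condition. Its level was 321, 519.7 and 510.2 CPM in γδ cells with AA, against 89.2, 38.8 and 152 CPM in αβ cells with AA. Without AA it was 428, 289 and 379.6 CPM in γδ cells, against 137, 161 and 207 CPM in αβ cells. All 6 γδ libraries lay above all 6 αβ libraries. The mean was 450 ± 112 CPM in γδ cells with AA and 93.2 ± 56.5 CPM in αβ cells with AA (SD, n = 3 each). On the log2 scale, γδ cells exceeded αβ cells by 2.31 ± 0.47 (SE) with AA, at an edgeR adjusted p of 0.10, rank 46 of all genes by p. Without AA the difference was 1.09 ± 0.45 (SE; edgeR adjusted p = 1.00), and it was 1.24 without the 2 libraries that went against their labels.

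The call for Cxcr6 between the populations with AA lay near the threshold. It passed without the filter (edgeR log2 2.41, adjusted p = 2.55e-08), in DESeq2 (1.98, adjusted p = 0.00746) and in voom (2.94, adjusted p = 0.0245). Leaving out αβ cells with AA replicate 3 (edgeR log2 2.89, adjusted p = 0.0233) or replicate 2 (1.97, adjusted p = 0.0453) also brought it past the threshold. Over all alternatives the adjusted p ran to 0.230. T cell markers stood the same way: all 11 were higher in γδ than in αβ cells with AA, at a median log2 difference of 1.92. The list includes Trac, Trbc1 and Trbc2, constant regions of the αβ receptor. In bulk RNA, fewer cells of a type and less RNA per cell cannot be told apart.

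AA itself left Cxcr6 within the spread of the γδ libraries, at a log2 fold change of 0.26 ± 0.44 (SE; edgeR adjusted p = 0.981), or 0.22 without the 2 libraries that went against their labels. In αβ cells its mean was 93.2 ± 56.5 CPM with AA and 168 ± 35.9 CPM without AA (SD, n = 3 each), and the groups overlapped through replicate 3 with AA. The log2 fold change was -0.97 ± 0.45 (SE; edgeR adjusted p = 0.488), -0.85 without those 2 libraries, and between -1.50 and -0.63 with any 1 library left out. The difference between the AA effects, γδ minus αβ, was 1.22 ± 0.63 (SE; edgeR adjusted p = 0.565), or 1.07 without them.

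Cxcr3, the receptor for the interferon-induced chemokines CXCL9 and CXCL10, was low and uneven. It had 37.0, 43.0 and 18.7 CPM in γδ cells with AA, against 18.3, 47.0 and 20.4 CPM in γδ cells without AA. In αβ cells it had 11.8, 0 and 6.13 CPM with AA, against 7.91, 24.3 and 29.5 CPM without AA. The count of 0, in replicate 2 with AA, allows up to 0.176 CPM (3 counts, counting error only). Every αβ library with AA lay below every γδ library, with AA or without, and the other groups overlapped. The log2 difference between γδ and αβ cells with AA was 2.60 ± 1.19 (SE; edgeR adjusted p = 0.264), and the AA effect in αβ cells was -2.02 ± 1.17 (SE; edgeR adjusted p = 0.577), or -1.75 without the 2 libraries that went against their labels. The size of both depended on the method: voom gave 5.90 between the populations and -4.92 with AA. Without αβ cells with AA replicate 2 edgeR gave 2.05 and -1.48.

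Cxcr4, the receptor for CXCL12 that also holds cells in bone marrow, was higher with AA in each γδ library. Its level was 35.8, 23.4 and 42.9 CPM in γδ cells with AA, against 16.1, 16.9 and 4.77 CPM in γδ cells without AA. These groups did not overlap, as was true in the same direction for 5.19% of all genes tested. The means were 34.0 ± 9.86 CPM with AA and 12.6 ± 6.80 CPM without AA (SD, n = 3 each). The log2 fold change of 1.40 ± 0.76 (SE) did not pass (edgeR adjusted p = 0.636), and it was 0.96 without the 2 libraries that went against their labels. In αβ cells the values were 29.3, 18.0 and 2.65 CPM with AA, against 11.7, 15.1 and 19.6 CPM without AA, so the groups overlapped. Between γδ and αβ cells with AA the log2 difference was 1.26 ± 0.76 (SE; edgeR adjusted p = 0.402), and it was 0.61 without αβ cells with AA replicate 3.

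Ccr2, the receptor for CCL2 that inflammatory monocytes also carry, had its highest levels in γδ cells without AA. It had 112, 72.3 and 25.0 CPM in γδ cells with AA, against 362, 183 and 111 CPM in γδ cells without AA. The ranges met only at 112 CPM with AA and 111 CPM without AA. The log2 fold change was -1.73 ± 0.87 (SE; edgeR adjusted p = 0.635), and without the filter it was called (edgeR log2 -1.74, adjusted p = 0.0431, the other alternatives running to 0.906). It was -2.10 without the 2 libraries that went against their labels and -1.06 without γδ cells without AA replicate 1. In αβ cells the level was 140.4, 13.3 and 45.9 CPM with AA, against 27.2, 24.5 and 171 CPM without AA. The average AA effect was -1.08 ± 0.61 (SE; edgeR adjusted p = 0.549), which without the filter was called as well (edgeR log2 -1.15, adjusted p = 0.0433, the others running to 1.00). That average was -0.54 without the same 2 libraries and -0.23 without αβ cells without AA replicate 3 alone.

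Monocyte genes varied beside Ccr2. The library with the most Ccr2, γδ cells without AA replicate 1, had 35050 CPM of the monocyte and macrophage gene Lyz2, and the αβ library without AA with the most Ccr2, replicate 3, had 22782 CPM. In αβ cells without AA replicates 1 and 2, with the least Ccr2 of that group, Lyz2 stood at 1857 and 1672 CPM. In γδ cells with AA, replicate 3 held 21968 CPM of Lyz2 beside 25.0 CPM of Ccr2. Of 12 monocyte and macrophage markers tested, 11 were lower with AA in γδ cells, at a median log2 of -1.48. In αβ cells 7 of 12 were lower, at a median of -0.07, and 0 were called in either. The part of such cells in the Ccr2 values was not tested. Without the 2 libraries that went against their labels, the log2 difference in Ccr2 between γδ and αβ cells without AA was 3.38, against 1.53 ± 0.87 (SE; edgeR adjusted p = 1.00) with all libraries.

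Promoters are shown for the 2 chemokine receptor genes whose groups did not overlap between the populations in both conditions (Cxcr6) or with AA in γδ cells (Cxcr4). They are the 250 bases before the gene start in RefSeq, build GRCm38.p6. The processing notes name another build, mm8, for the reads. Capitals mark matches to the RUNX letters TGTGGT or their reverse complement ACCACA, RUNX factors being regulators of many T cell genes. Cxcr6 lies on the plus strand of chromosome 9 (chr9:123806227-123806476), and Cxcr4 on the minus strand of chromosome 1 (chr1:128592300-128592549).
Cxcr6: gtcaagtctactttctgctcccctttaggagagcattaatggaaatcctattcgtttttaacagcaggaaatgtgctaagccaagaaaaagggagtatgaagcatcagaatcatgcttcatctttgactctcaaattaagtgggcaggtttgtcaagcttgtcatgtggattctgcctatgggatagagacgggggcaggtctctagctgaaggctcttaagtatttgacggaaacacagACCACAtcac
Cxcr4: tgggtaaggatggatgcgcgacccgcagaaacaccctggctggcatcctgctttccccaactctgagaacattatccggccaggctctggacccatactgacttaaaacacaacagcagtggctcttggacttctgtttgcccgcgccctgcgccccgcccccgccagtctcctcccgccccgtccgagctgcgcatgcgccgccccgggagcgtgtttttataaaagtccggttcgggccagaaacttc
In Cxcr6 the match begins 10 bases before the start, on the strand opposite to the gene. Of the 8 genes, 5 matched the table of promoters, and Cxcr3 held the other match, 110 bases before its start, while Cxcr4, Ccr2 and Itga1 held none. These letters, on either strand, occur in 14.0% of the 32851 promoters of that length. The T-box letters GGTGTGA, or TCACACC on the other strand, occur in 3.33% of them and in 0 of the 5. A match is a run of letters, not a bound site.

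S1pr1, which guides lymphocytes out of tissue, did not separate the groups with all libraries kept. Its level was 170.3, 279 and 115 CPM in γδ cells with AA, against 188, 171 and 269 CPM in γδ cells without AA. In αβ cells it was 190.2, 514 and 187 CPM with AA, against 253, 291 and 102 CPM without AA. The highest and the lowest library of all 12 were thus both labelled αβ, and the lowest went against its label in Trdc. Without AA the overlap came from the 2 libraries that went against their labels, at 269 CPM in γδ cells and 102 CPM in αβ cells. The other γδ libraries without AA had 188 and 171 CPM, against 253 and 291 CPM in the other αβ libraries without AA. In replicate order, B cell markers summed to 1528, 2937 and 8840 CPM in γδ cells without AA, and 8199, 12214 and 2247 CPM in αβ cells without AA. With AA they summed to 1331, 3196 and 1304 CPM in γδ cells, and 5401, 16286 and 6712 CPM in αβ cells. In each group the library with the highest sum also had the most S1pr1. The part of B cells in the S1pr1 values was not tested. Klf2, a transcription factor known to drive S1pr1, averaged 14.3 ± 13.9 CPM in γδ cells with AA and 21.9 ± 7.64 CPM without AA, and 14.9 ± 9.56 CPM in αβ cells with AA and 24.7 ± 8.32 CPM without AA (SD, n = 3 each). Cd69, whose product binds S1PR1 and takes it off the cell surface, averaged 451 ± 225 CPM with AA and 347 ± 186 CPM without AA in γδ cells, and 347 ± 73.7 CPM with AA and 479.9 ± 211 CPM without AA in αβ cells (SD, n = 3 each). Neither was called in any comparison by edgeR (adjusted p of 0.600 or more). Klf2, Cd69 and the integrin β chains below were picked after their values were seen.

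Itgal, the α chain of LFA-1, which binds ICAM-1 and anchors lymphocytes in the liver sinusoids, was the receptor gene nearest to a call with AA. It had 180.2, 208 and 142 CPM in αβ cells with AA, against 415, 336 and 417 CPM in αβ cells without AA. All 3 libraries with AA lay below all 3 without AA. The means were 177 ± 32.9 CPM with AA and 390 ± 46.2 CPM without AA (SD, n = 3 each). The log2 fold change was -1.32 ± 0.27 (SE; edgeR adjusted p = 0.156), rank 24 of all genes by p, beside a median over all genes of 0.12. It was -1.32 as well without the 2 libraries that went against their labels. Without the filter (edgeR log2 -1.42, adjusted p = 0.00787) and in DESeq2 (-0.93, adjusted p = 0.0173) it was called, and over all alternatives the adjusted p ran to 0.634.

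In γδ cells Itgal had 344, 428 and 281 CPM with AA, against 331, 593 and 365 CPM without AA. These groups overlapped, and the log2 fold change was -0.32 ± 0.26 (SE; edgeR adjusted p = 0.814), or -0.47 without the 2 libraries that went against their labels. With any 1 library left out it ran from -0.53 to -0.00. The difference between the AA effects was 1.00 ± 0.37 (SE; edgeR adjusted p = 0.451), or 0.85 without them. Averaged over both populations the AA effect was -0.82 ± 0.19 (SE; edgeR adjusted p = 0.226), or -0.89 without them. That average was called without the filter (edgeR log2 -0.87, adjusted p = 0.0277) and in DESeq2 (-0.59, adjusted p = 0.0371), with 0.581 as the highest adjusted p of the alternatives. With AA, every γδ library lay above every αβ library, by 1.10 ± 0.26 on the log2 scale (SE; edgeR adjusted p = 0.149), which was called without the filter (edgeR log2 1.19, adjusted p = 0.0284) and in DESeq2 (0.79, adjusted p = 0.0235), the highest being 0.385.

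T cell markers were lower beside Itgal in αβ cells. All 11 markers of that list were lower with AA than without AA, at a median log2 fold change of -1.81, and Lck, the kinase of the T cell receptor, was called as lower (log2 -2.35, edgeR adjusted p = 0.0377). That call held in 7 of 22 alternatives, with an adjusted p of up to 0.50, and was lost without any 1 library of the αβ groups other than replicate 2 with AA, and without γδ cells with AA replicate 1 or γδ cells without AA replicate 3. Without both libraries that went against their labels it was lost as well (edgeR log2 -2.38, adjusted p = 0.118). Ptprc, which encodes the CD45 of the sort, had 609.6 to 794 CPM in αβ cells with AA, against 1009 to 1100 CPM without AA.

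Itgae encodes the α chain of CD103, which binds E-cadherin on epithelial cells and bile ducts. Its level was 249.8, 383 and 100 CPM in γδ cells with AA, against 119, 266 and 78.8 CPM in γδ cells without AA. In αβ cells it was 60.2, 22.9 and 0.663 CPM with AA, against 71.6, 102 and 138 CPM without AA. The lowest of these rested on 4 counts, in the library that was rich in Gm10800. Each αβ library with AA lay below every other library in the study. The groups with and without AA did not overlap in αβ cells for Itgae and Itgal, 2 of the 8 receptors, as was true in the same direction for 7.97% of all genes.

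The log2 fold change of Itgae with AA was 0.62 ± 0.85 in γδ cells (SE; edgeR adjusted p = 0.951) and -2.22 ± 0.89 in αβ cells (SE; edgeR adjusted p = 0.443). Without the filter the αβ value was called (edgeR log2 -2.33, adjusted p = 1.55e-04, the others running to 0.696). The difference of the AA effects was 2.84 ± 1.22 (SE; edgeR adjusted p = 0.495), called only without the filter among the alternatives run (edgeR log2 2.94, adjusted p = 0.00103, the others running to 0.901). Without the 2 libraries that went against their labels these 3 values were 0.28, -2.04 and 2.32. Between γδ and αβ cells with AA the difference was 3.36 ± 0.93 (SE; edgeR adjusted p = 0.200), called without the filter (edgeR log2 3.46, adjusted p = 9.58e-11) and in DESeq2 (2.97, adjusted p = 0.0386), the highest being 0.385. Single αβ libraries with AA moved the size of these values for Itgae: without replicate 3 the αβ effect was -1.44 and the difference between the populations 2.62, and without replicate 1 they were -3.31 and 4.49. In γδ cells the Itgae value ran from 0.11 without replicate 2 with AA to 1.27 without replicate 2 without AA.

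Itga1, the α chain of the collagen receptor CD49a, was uneven between libraries, with 25 to 615 counts in 11 of them. It had 10.8, 7.76 and 28.2 CPM in γδ cells with AA, against 3.41, 9.57 and 0.143 CPM in γδ cells without AA, the last from 3 counts. In αβ cells it had 2.78, 10.5 and 17.2 CPM with AA, against 6.15, 4.86 and 20.1 CPM without AA. All 4 groups overlapped. The log2 fold change in γδ cells was 1.84 ± 1.24 (SE; edgeR adjusted p = 0.731). It was 1.23 without γδ cells without AA replicate 3, the library with 3 counts, and likewise 1.23 without both libraries that went against their labels. Without γδ cells with AA replicate 3 it was 1.07, and without γδ cells without AA replicate 2 it was 3.12.

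The β chains that pair with these integrins were measured too. Itgb2, the partner of Itgal, averaged 451 ± 316 CPM in αβ cells with AA and 420.2 ± 140.1 CPM without AA (SD, n = 3 each). Itgb7, the partner of Itgae, averaged 260.2 ± 184 CPM with AA and 379 ± 119 CPM without AA in γδ cells, and 179 ± 83.0 CPM with AA and 269 ± 66.3 CPM without AA in αβ cells (SD, n = 3 each). Itgb1, the partner of Itga1, lay between 48.5 and 131 CPM in all 12 libraries. None of the 3 was called in any comparison (edgeR adjusted p of 0.544 or more).

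**Figure D2:**
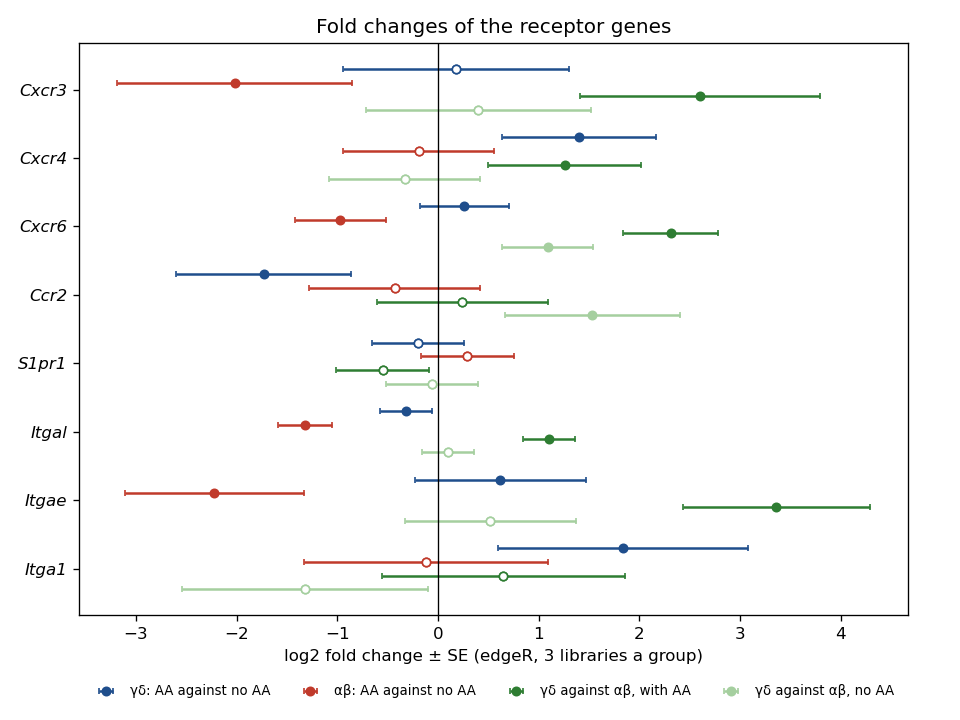
Log2 fold change ± SE (edgeR, 3 libraries a group) of the 8 receptor genes for AA against no AA in γδ cells (blue) and αβ cells (red), and for γδ against αβ cells with AA (dark green) and without AA (light green). Cxcr6, Itgal and Itgae lie at 2.31, 1.10 and 3.36 between the populations with AA; no point passed the adjusted threshold. Open points, 15 of 32, changed sign in at least 1 alternative.

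The fold changes of the 8 receptors are also given as a group, with no test over the list. With AA in γδ cells 5 of 8 were positive at a median log2 of 0.22, beside -0.06 over all genes. Of these 8, 2 changed sign in at least 1 alternative. With AA in αβ cells 7 of 8 had a negative fold change, at a median log2 of -0.70, while over all genes 53.2% were positive at a median of 0.12; 4 of these 8 changed sign in at least 1 alternative. Between γδ and αβ cells with AA 7 of 8 were positive at a median of 1.18, beside -0.19 over all genes. In this comparison 3 of 8 changed sign in at least 1 alternative. Here 4 of 8, Cxcr3, Cxcr6, Itgal and Itgae, had every γδ library above every αβ library, against 7.36% of all genes. The 8 were chosen with earlier results of these data known, so this share is a description. All 11 T cell markers were also higher in γδ than in αβ cells with AA, at a median of 1.92. Without AA the median was 0.25 beside -0.07 over all genes, and 1 of 8, Cxcr6, did not overlap, against 3.94% of all genes. Without AA 6 of 8 changed sign in at least 1 alternative. These comparisons share libraries: αβ cells with AA enter both the AA effect in αβ cells and the contrast between the populations with AA.

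Ordered by group mean, 5 of the 8 genes were lowest in αβ cells with AA: Cxcr3, Cxcr6, Ccr2, Itgal and Itgae. For Itgal and Itgae this last place was apart from the next group, and for the other 3 the neighbours overlapped. Cxcr6 was in addition apart between γδ cells without AA and αβ cells without AA. S1pr1 had its highest mean in αβ cells with AA, 297 ± 188 CPM against 215 ± 100 CPM in αβ cells without AA, and Itga1 its lowest in γδ cells without AA (SD, n = 3 each). No other neighbours in the order of the means were free of overlap.

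Per kilobase of exon, Cxcr6 and S1pr1 were the most abundant of the 8. Cxcr6 averaged 233 ± 57.9 CPM per kb in γδ cells with AA and 189 ± 36.5 without AA, and 48.3 ± 29.2 in αβ cells with AA and 87.1 ± 18.6 without AA (SD, n = 3 each). S1pr1 averaged 61.7 ± 27.5 and 68.7 ± 17.1 CPM per kb in γδ cells with and without AA, and 97.5 ± 61.6 and 70.7 ± 32.8 in αβ cells with and without AA. S1pr1 thus had the highest level per length in αβ cells with AA and Cxcr6 in the other 3 groups. Itgal had the next highest mean in each group, with 26.9 to 65.4 CPM per kb. Itgae averaged 6.09 to 53.3 CPM per kb, and in αβ cells with AA both Ccr2, at 9.84, and Cxcr4, at 9.20, lay above it. Itga1, the gene with the most exon sequence, averaged at most 0.839 CPM per kb. Its exons overlap those of Gm49395 (32 counts against 2368 for Itga1), and Cxcr6 lies inside Fyco1 on the other strand without shared exons. Strand use in the counting is not given in the sources used here.

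Levels relative to CD3 were compared because the RNA of CD3 and of other T cell markers was lower in αβ cells with AA. Counts of Cd3d, Cd3e and Cd3g together made 402, 559 and 304 CPM in γδ cells with AA, against 683, 622 and 399 CPM without AA. In αβ cells they made 155, 40.7 and 233 CPM with AA, against 208, 243 and 569 CPM without AA. The libraries with AA thus held less CD3 in αβ cells except for an overlap of replicate 3 with 1 library without AA.

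**Figure D3:**
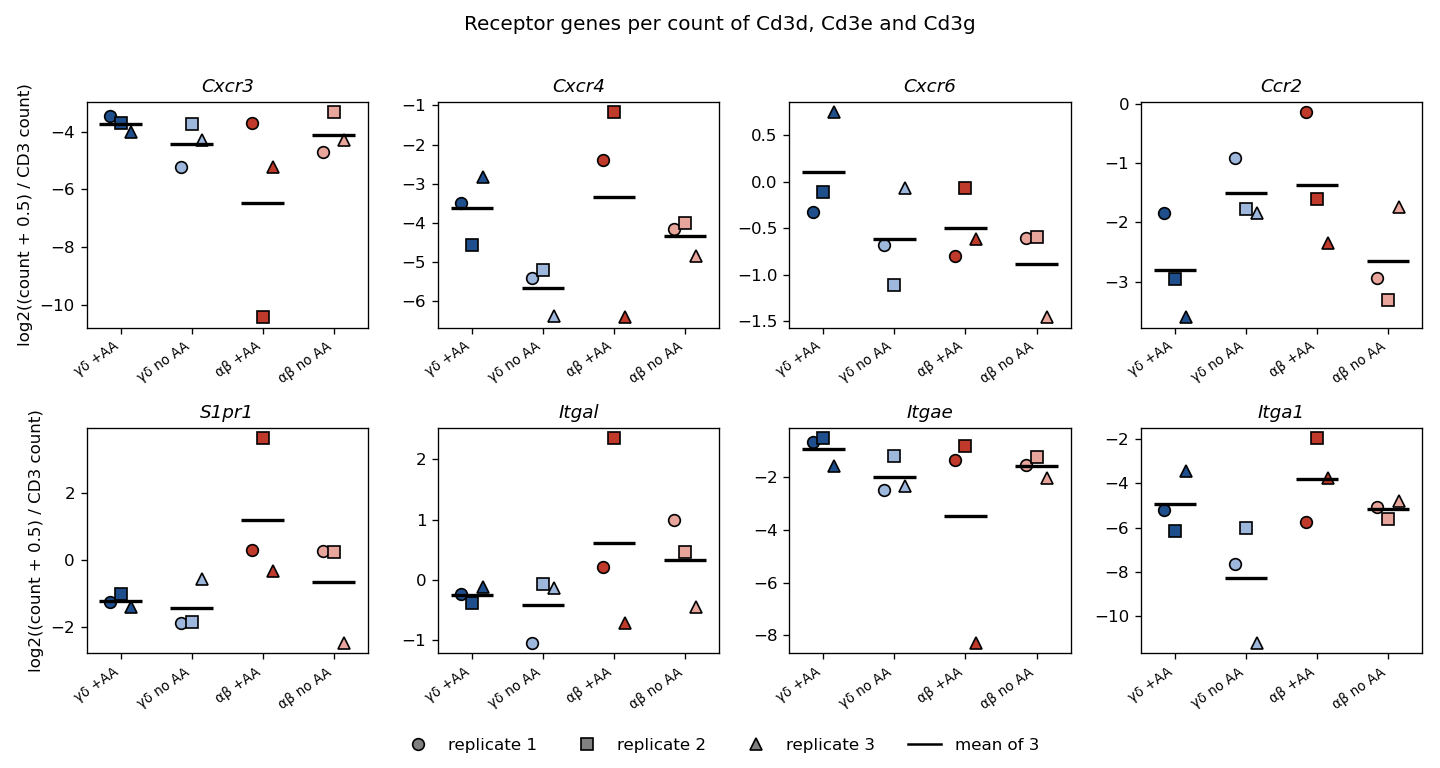
Counts of each receptor gene per count of Cd3d, Cd3e and Cd3g, as log2((count + 0.5) / CD3 count), for every library with the mean of 3. Itgal, lowest in αβ cells with AA on the CPM scale, overlaps between αβ cells with and without AA here, and Cxcr4 in γδ cells with AA stays above γδ cells without AA.

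On that scale the sign of the Itgal difference in αβ cells depended on the libraries and the denominator. Itgal had 1.16, 5.10 and 0.611 counts per CD3 count in αβ cells with AA, against 1.99, 1.38 and 0.733 without AA. The log2 difference was 0.28 (exact two-sided permutation p = 0.9, where 3 against 3 libraries allow no p below 0.10), and it ran from -0.58 without αβ cells with AA replicate 2 to 0.95 without replicate 3. Without the 2 libraries that went against their labels it was -0.11, and per count of Ptprc in place of CD3 it was -0.56. Cxcr6 had 0.577, 0.954 and 0.651 counts per CD3 count in αβ cells with AA, against 0.656, 0.661 and 0.364 without AA, a log2 difference of 0.39 (exact permutation p = 0.6), 0.11 without those 2 libraries and -0.45 per count of Ptprc. Itgae differed by -1.88 (exact permutation p = 0.9), with 0.389, 0.561 and 0.00284 with AA, against 0.343, 0.421 and 0.242 without AA. Without αβ cells with AA replicate 3 that difference was 0.52, without the 2 libraries -2.10, and per count of Ptprc -2.73. Cxcr3 differed by -2.35 in αβ cells (exact permutation p = 0.4), by -0.36 without replicate 2, the library with 0 counts, by -2.44 without the 2 libraries and by -3.20 per count of Ptprc.

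In γδ cells Cxcr4 had 0.0892, 0.0419 and 0.141 counts per CD3 count with AA, against 0.0236, 0.0272 and 0.0119 without AA. These groups did not overlap, and the log2 difference of 2.03 reached the smallest p that 3 against 3 libraries allow (exact permutation p = 0.1). Ccr2 reached the same p in the other direction, at -1.29, although its values of 0.277, 0.129 and 0.0822 with AA and 0.530, 0.294 and 0.279 without AA came close to each other. Without the 2 libraries that went against their labels these differences were 1.67 for Cxcr4 and -1.46 for Ccr2, and per count of Ptprc 2.10 and -1.22. Over both populations, with permutations within each (400 in all, smallest p 0.005), the log2 differences were 1.52 for Cxcr4 (exact permutation p = 0.095), 0.56 for Cxcr6 (p = 0.09) and 2.35 for Itga1 (p = 0.045). Without the 2 libraries they were 1.21 (exact permutation p = 0.27), 0.55 (p = 0.13) and 1.71 (p = 0.1), and per count of Ptprc 1.13 (exact permutation p = 0.145), 0.17 (p = 0.735) and 1.97 (p = 0.115). Without γδ cells without AA replicate 3 alone, where Itga1 had 3 counts, Itga1 was at 1.62 (exact permutation p = 0.085). After Benjamini-Hochberg adjustment over the 8 tests, 0 of 8 passed. Without αβ cells with AA replicate 3, 1 of 8 passed, Cxcr4, at 2.29 (exact permutation p = 0.005).

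Between γδ and αβ cells with AA the picture per CD3 count also differed from that in CPM. Cxcr6 was higher in γδ cells by 0.60 on the log2 scale (exact permutation p = 0.3) and Itgal differed by -0.86 (exact permutation p = 0.5). Itgae differed by 2.55 (exact permutation p = 0.4) and Cxcr3 by 2.74 (exact permutation p = 0.2). S1pr1 had 0.424, 0.50 and 0.377 counts per CD3 count in γδ cells with AA, against 1.23, 12.6 and 0.804 in αβ cells with AA, without overlap (log2 -2.43, exact permutation p = 0.1). The 12.6 came from replicate 2, the library with the least CD3 and with the highest sum of B cell markers (16286 CPM). Per count of Ptprc these differences were 2.06 for Cxcr6, 0.60 for Itgal, 4.01 for Itgae, 4.20 for Cxcr3 and -0.97 for S1pr1. Without αβ cells with AA replicate 3 the Itgae difference per CD3 count was 0.15, and without replicate 2 those of Cxcr3 and Itgal were 0.75 and 0.00.

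**Figure D4:**
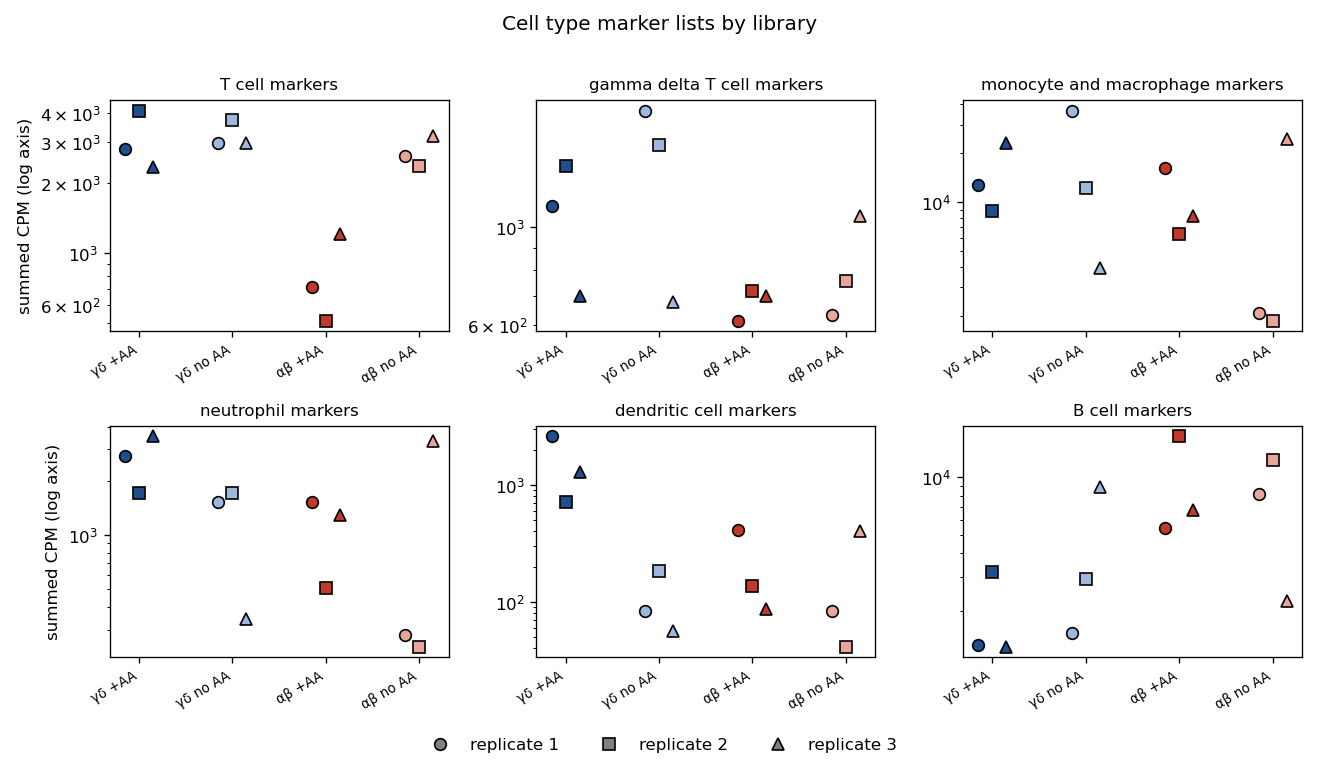
Summed CPM of 6 lists of cell type markers in every library (log axes), γδ cells in blue and αβ cells in red, darker with AA; symbols mark the replicate. Dendritic cell markers, mostly Fscn1, are highest in γδ cells with AA (719 to 2594 CPM), and T cell markers lowest in αβ cells with AA (511 to 1214 CPM).

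Markers of other cells were present in every group. Monocyte and macrophage markers (15 genes, led by Lyz2) summed to 8882 to 23157 CPM in γδ cells with AA, against 3957 to 36616 CPM without AA. In αβ cells they summed to 6374 to 16305 CPM with AA, against 1861 to 24488 CPM without AA. The Kupffer cell genes Clec4f and Vsig4 were at 0 in 9 and 8 of the 12 libraries, and C1qc of the same list in 8. Other genes of that list were found more widely: Timd4, C1qb, Marco and Adgre1 were at 0 in 6, 4, 2 and 1 libraries. They reached 12.5, 53.3, 26.3 and 86.8 CPM. Dendritic cell markers (9 genes, led by Fscn1) summed to 719 to 2594 CPM in γδ cells with AA, against 56.7 to 184 CPM without AA. Fscn1 alone made 608 to 2445 CPM of the sums with AA. Of the 9 markers, 7 were higher and 2 lower with AA in γδ cells, and 0 were called. In αβ cells the sum was 86.6 to 411 CPM with AA, against 41.3 to 399.8 CPM without AA. Between the γδ groups the sum moved with Cxcr4. Within γδ cells with AA, sums of 2594, 719 and 1274 CPM stood beside 35.8, 23.4 and 42.9 CPM of Cxcr4. B cell markers (6 genes, led by Ighm) summed to 1304 to 3196 CPM in γδ cells with AA and 1528 to 8840 CPM without AA, and to 5401 to 16286 CPM in αβ cells with AA and 2247 to 12214 CPM without AA. Neutrophil markers (10 genes, led by Mpo) summed to 1721 to 3531 CPM in γδ cells with AA, against 344 to 1711 CPM without AA. Between these groups they thus also moved with Cxcr4. In αβ cells they summed to 507 to 1533 CPM with AA, against 241 to 3307 CPM without AA. There they did not keep the order of Cxcr4: with AA, sums of 1533, 507 and 1288 CPM stood beside 29.3, 18.0 and 2.65 CPM of Cxcr4. With AA in γδ cells 9 of the 10 neutrophil markers had a positive fold change, at a median log2 of 2.02, and 0 were called. Hepatocyte markers stayed at or under 24.9 CPM, endothelial markers at or under 160.1 CPM and natural killer cell markers at or under 59.1 CPM. Mast cell and basophil markers (6 genes, led by Cpa3) reached 3397 CPM. The genes that the sort excluded, Cd4, Cd8a, Cd8b1 and Klrb1c, summed to at most 22.5 CPM. The part of these cells in the receptor values was not tested.

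Among the 12 libraries the receptors formed loose pairs. Pearson's r of log2 CPM was 0.81 for Cxcr3 with Cxcr6, 0.75 for Itgal with Itgae and 0.70 for Cxcr4 with Itgae, and S1pr1 was negative with each of the other 7, down to -0.59 with Cxcr3. These values are descriptions over libraries that share groups and T cell content. The genes most like each receptor over the 12 libraries, among tested genes with a mean of at least 5 CPM, were Ramp1, Tmem176b and Jaml for Cxcr6 (r = 0.959, 0.955 and 0.948) and Nudt1, Slc12a7 and Eno3 for Cxcr3 (0.966, 0.965 and 0.946). Arpin and Rsu1 were among those most like Cxcr4 (0.985 and 0.938), and Fkbp3, Nagk and Svil most like Ccr2 (0.927, 0.878 and 0.876). For S1pr1 they were Scyl3, Clec2i and Coq8a (0.891, 0.884 and 0.872). Lck, Trp53 and Sh2d2a were most like Itgal (0.974, 0.953 and 0.949), Aqp3, Lypla2 and Nr1d1 most like Itgae (0.981, 0.961 and 0.960), and Mapkapk2, Cttnbp2nl and Chpt1 most like Itga1 (0.904, 0.902 and 0.899).

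**Figure D5:**
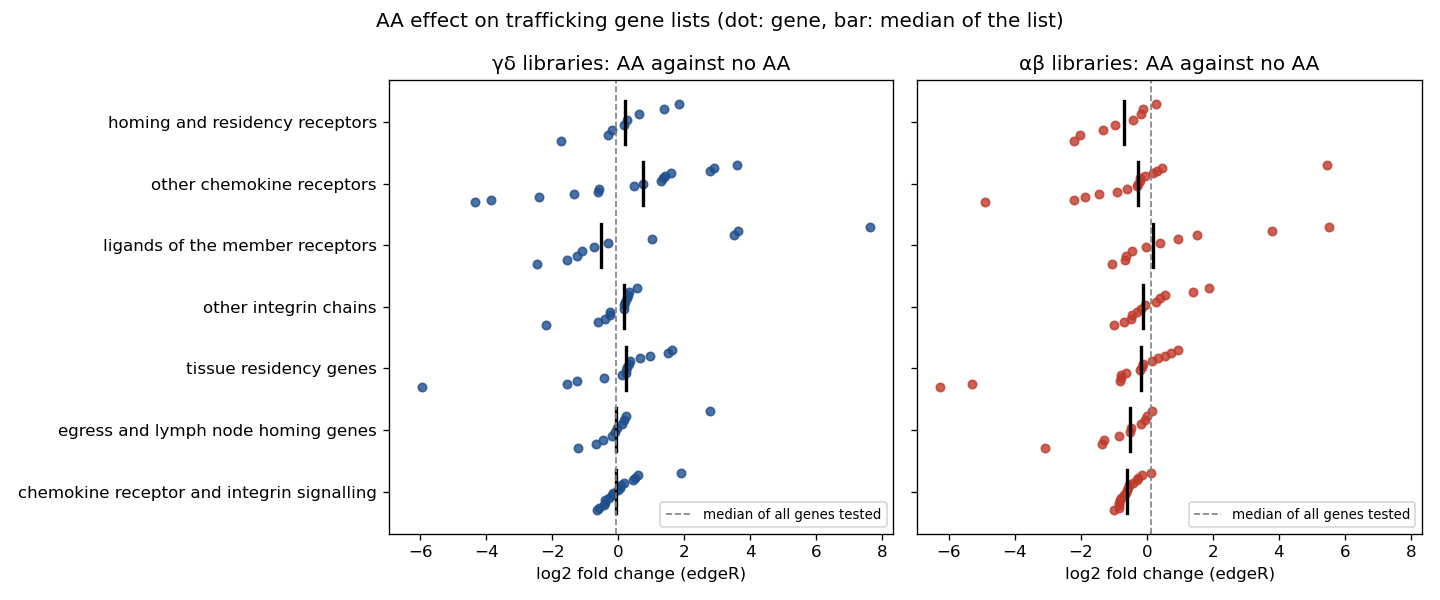
Log2 fold change with AA (edgeR) of each gene in the receptor list and 6 further trafficking lists, in γδ cells (left) and αβ cells (right); a dot is a gene, a bar the median of its list and the dashed line the median of all genes tested. The receptor list has a median of 0.22 in γδ cells and -0.70 in αβ cells.

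The wider trafficking genes were followed in 6 lists, of which 1 gene was called. Cytip, whose product binds cytohesin and loosens adhesion through LFA-1, was higher with AA in the γδ libraries. It had 1777, 1058 and 1306 CPM in γδ cells with AA, against 283, 403 and 411 CPM without AA (log2 1.89 ± 0.25 SE, edgeR adjusted p = 0.0347). It was also higher in γδ than in αβ cells with AA (log2 1.73 ± 0.25 SE, edgeR adjusted p = 0.0369), where αβ cells with AA had 529, 391 and 436 CPM. The AA call was lost, at an adjusted p of up to 0.269, without γδ cells with AA replicate 1 or 3, without any 1 of the γδ libraries without AA, and without αβ cells with AA replicate 2. Without both libraries that went against their labels it was lost too (edgeR log2 1.93, adjusted p = 0.0644). The call between the populations held in 10 of 22 alternatives, with an adjusted p of up to 0.202, and was lost without αβ cells with AA replicate 1 or 3, γδ cells with AA replicate 1 or 3, or αβ cells without AA replicate 1 or 2. Of the 16 genes of chemokine receptor and integrin signalling, 8 had a negative fold change with AA in γδ cells, and Cytip was the 1 called. In αβ cells 15 of 16 were negative at a median log2 of -0.61, and 0 were called. Fscn1, which led the dendritic cell markers, had 2445, 608 and 1142 CPM in γδ cells with AA, against 45.6, 155 and 26.1 CPM without AA. The part of dendritic cells in the Cytip values was not tested.

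Other chemokine receptors numbered 15, and 0 were called in any of the 6 comparisons. Ccr7, which leads cells to lymph nodes, came nearest. It had 4814, 2605 and 3986 CPM in γδ cells with AA, against 332, 888 and 425 CPM in γδ cells without AA. The groups were far apart, at a log2 fold change of 2.79 ± 0.44 (SE), yet did not pass (edgeR adjusted p = 0.105). It was called in 7 of 22 alternatives, among them those without both libraries that went against their labels (edgeR adjusted p = 0.0424) or without any 1 library of αβ cells without AA, and the adjusted p ran up to 0.289. The sum of dendritic cell markers, mostly Fscn1, was higher in the same γδ libraries with AA. The part of dendritic cells in the Ccr7 values was not tested either. Ccr6, the receptor for CCL20, had a log2 difference of 1.33 ± 0.42 between γδ and αβ cells with AA (SE; edgeR adjusted p = 0.221). Of the 10 egress and lymph node homing genes tested, 6 were negative with AA in γδ cells at a median log2 of -0.07, and 8 in αβ cells at a median of -0.49, with 0 called.

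Ligands of the 8 receptors were measured as well, 10 of 11 passing the filter and 0 called. Cxcl16, the ligand of Cxcr6, had 108, 56.3 and 141 CPM in γδ cells with AA, against 9.83, 11.6 and 2.57 CPM without AA. The groups did not overlap, at a log2 fold change of 3.64 ± 1.04 (SE; edgeR adjusted p = 0.635), or 3.16 without the 2 libraries that went against their labels. Icam1, the ligand of LFA-1, had 491, 297 and 216 CPM in γδ cells with AA, against 173, 191 and 117 CPM without AA (log2 1.02 ± 0.37 SE, edgeR adjusted p = 0.635), or 0.78 on the log2 scale without those libraries. Both genes are known in dendritic cells and macrophages. The sum of dendritic cell markers, mostly Fscn1, was higher in the same libraries, as given above. The part of such cells in the Cxcl16 and Icam1 values was not tested.

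Integrin chains other than the 3 receptors numbered 12 and tissue residency genes 14, with 0 called in either list. With AA the integrin chains had a median log2 of 0.18 in γδ cells and -0.11 in αβ cells, and the residency genes 0.25 in γδ cells and -0.17 in αβ cells. Itga5, the α chain of a fibronectin receptor, and Itga4, which pairs with Itgb1 or Itgb7, differed between γδ and αβ cells with AA by 1.86 ± 0.67 and 1.01 ± 0.46 (SE; edgeR adjusted p = 0.225 and 0.263). Runx3, a transcription factor of resident T cells, had 130.2, 137 and 93.4 CPM in γδ cells with AA, against 42.5, 62.3 and 42.2 CPM in αβ cells with AA (log2 1.40 ± 0.33 SE, edgeR adjusted p = 0.145). Rgs1, which damps chemokine receptor signals, had 1222, 650.2 and 498 CPM in γδ cells with AA, against 230.2, 392 and 122 CPM without AA (log2 1.64 ± 0.48 SE, edgeR adjusted p = 0.635), or 1.27 on the log2 scale without the 2 libraries that went against their labels.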

How the data were processed

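Raw counts per gene of 12 libraries make up the deposited table. Per the submitters' processing notes, Bowtie 0.12.2 and the build mm8 were used; which program counted reads, with which annotation and strand setting, is not stated in the sources used here. Symbols came from GENCODE M21 names, found for 55141 of the 55401 identifiers. With their version numbers 98.1% of the identifiers matched, although the notes name mm8, so the build of the reads is not settled. Totals of 6036487 to 30548253 counts set the precision of low genes, and CPM of all counts are given.

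Genes kept by filterByExpr (minimum count 10; 22107 genes) were tested with edgeR 4.0.16 in R 4.3.3, with TMM scaling and all 12 libraries in one fit (8 residual degrees of freedom, common biological coefficient of variation 1.21). Alternatives were other scalings and filters, DESeq2 1.42.0, limma 3.58.1 (voom), the groups compared alone, a replicate block, and left-out libraries or repeat genes. The code was tested on simulated data. Counts per CD3 count used a pseudocount of 0.5 and exact permutation tests, with counts of Ptprc as another denominator. Replicates differed by more than sampling noise (chi-square per degree of freedom 45.8 to 228).

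The 8 receptors and all lists (6 of pathways, 12 of markers) were chosen with earlier results of these data known. Named besides the receptors were the 3 most correlated genes of each and, per list, called genes or the 2 with the smallest p. Some genes that this rule names are not reported here.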

Additional observations from a re-analysis of the deposited data

How the results depend on the processing

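Of the 8 receptor genes, the number called was 0 in each of the 6 comparisons, and most alternatives kept it there. Without a filter on low counts it was 1 with AA in γδ cells, 2 with AA in αβ cells, 2 in the average, 1 in the difference and 3 between γδ and αβ cells with AA. DESeq2, run on unfiltered counts, called 1 with AA in αβ cells, 1 in the average and 3 between γδ and αβ cells with AA. The voom fit called 1 between γδ and αβ cells with AA. With 1 library left out, that comparison ranged from 0 to 1, and so did the count per CD3 (0 to 1). Left-out libraries changed the calls over all genes more: from 0 to 7 with AA in γδ cells (2 with all libraries), 0 to 142 with AA in αβ cells (3; 142 without αβ cells with AA replicate 2) and 0 to 220 between γδ and αβ cells with AA (5). Without both libraries labelled replicate 3 without AA, 0 receptors were called. The cause of these shifts was not tested.

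The replicate numbers were not shown to pair libraries, since deviations of same-numbered libraries correlated at -0.18 to 0.14. With a replicate block, 0 receptors and 0 genes were called in every comparison, so that Cytip and Lck lost their calls.

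DESeq2's size factors moved the median log2 of all genes to 0.50 with AA in αβ cells (0.12 with TMM) and to -0.50 between γδ and αβ cells with AA (-0.19 with TMM). Under them Itgal stood at -0.93 with AA in αβ cells.

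The sentences give fold changes for 22 of the 48 pairs of gene and comparison, none of which changed sign in any alternative. They were picked after this was known, and Itgal with AA in γδ cells came as close to a change of sign as a log2 of -0.00. Of the other 26, 17 changed sign in at least 1 alternative, and 15 of those are among the 32 points of the fold change plot, drawn open. By TMM-scaled CPM, 5 of 8 receptors were again lowest in αβ cells with AA, and 7 of 8 kept the order of the groups. Counting error was widest where counts were few: Cxcr3, Itga1 and Itgae had 0, 3 and 4 counts in 1 library each.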
